A study of Sus scrofa with 8 samples.

Results

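Fatty acid oxidation in the liver was followed through 8 genes, CPT1A, CPT2, ACADM, ACADVL, HADHA, HADHB, EHHADH and PDK4, chosen by gene symbol from the annotation of an Affymetrix porcine array. The annotation listed 11 probe sets with exactly 1 of these symbols, for 7 of the 8 genes, among 24123 probe sets on the array and 6765 genes with a probe set of their own symbol. EHHADH, the peroxisomal bifunctional enzyme, was not analysed here. The arrays, 1 for each animal, compared the indigenous Korean native pig (KNP; 4 animals aged 7 months) with the commercial Yorkshire breed (YS; 4 animals aged 6 months). All were raised alike, and RNA was taken from the tip of the largest lobe of the liver. The sources used here do not state the sex of the pigs, the time since their last feed or the days of hybridization. Since every KNP animal was a month older, breed and age cannot be told apart.

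Long-chain fatty acids enter the mitochondrial matrix as carnitine esters, which CPT1A makes at the outer membrane and CPT2 turns back into acyl-CoA inside. Each round of beta-oxidation then starts with an acyl-CoA dehydrogenase (ACADVL for very long chains, ACADM for medium chains), and the trifunctional protein, made of HADHA and HADHB, carries out the later steps on long chains. The acetyl-CoA formed feeds the citric acid cycle or, in the liver, ketone body synthesis. PDK4 phosphorylates and so inactivates pyruvate dehydrogenase, which spares glucose while fat is burned. In mammals CPT1A and PDK4 are known as fasting-induced genes under the nuclear receptor PPARA.

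None of the 10 member probe sets tested passed the test for a difference between the breeds, and their log2 differences split evenly between the directions. The test was limma's moderated test on log2(intensity + 16), two-sided, with Benjamini-Hochberg adjustment over 14399 probe sets and a threshold of 0.05 on the adjusted p. Over all probe sets tested, 149 (1.03%) passed, 61 (0.424%) higher and 88 (0.611%) lower in KNP. Among the members 0 passed, with adjusted p between 0.339 and 0.925, and 0 had an unadjusted p under 0.05, against 15.1% of all probe sets tested. The KNP and YS values overlapped in all 10, whereas 9.68% of all probe sets tested showed no overlap. The mean of the log2 values, by which higher and lower means are counted throughout, was higher in KNP for 5 of the probe sets and lower for 5. By the brightest probe set of each of the 6 genes tested, the median log2 difference, KNP minus YS, was 0.064, beside −0.0086 over all probe sets tested. A p above the threshold does not show equal levels, so the differences are given with their SE and, for most, a 95% interval. In whole liver, fewer cells of a type and less RNA per cell cannot be told apart. Arrays of the same breed correlated over the tested probe sets at 0.912 to 0.945 in KNP and 0.946 to 0.955 in YS, a description across probe sets that are not independent.

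**Figure D1:**
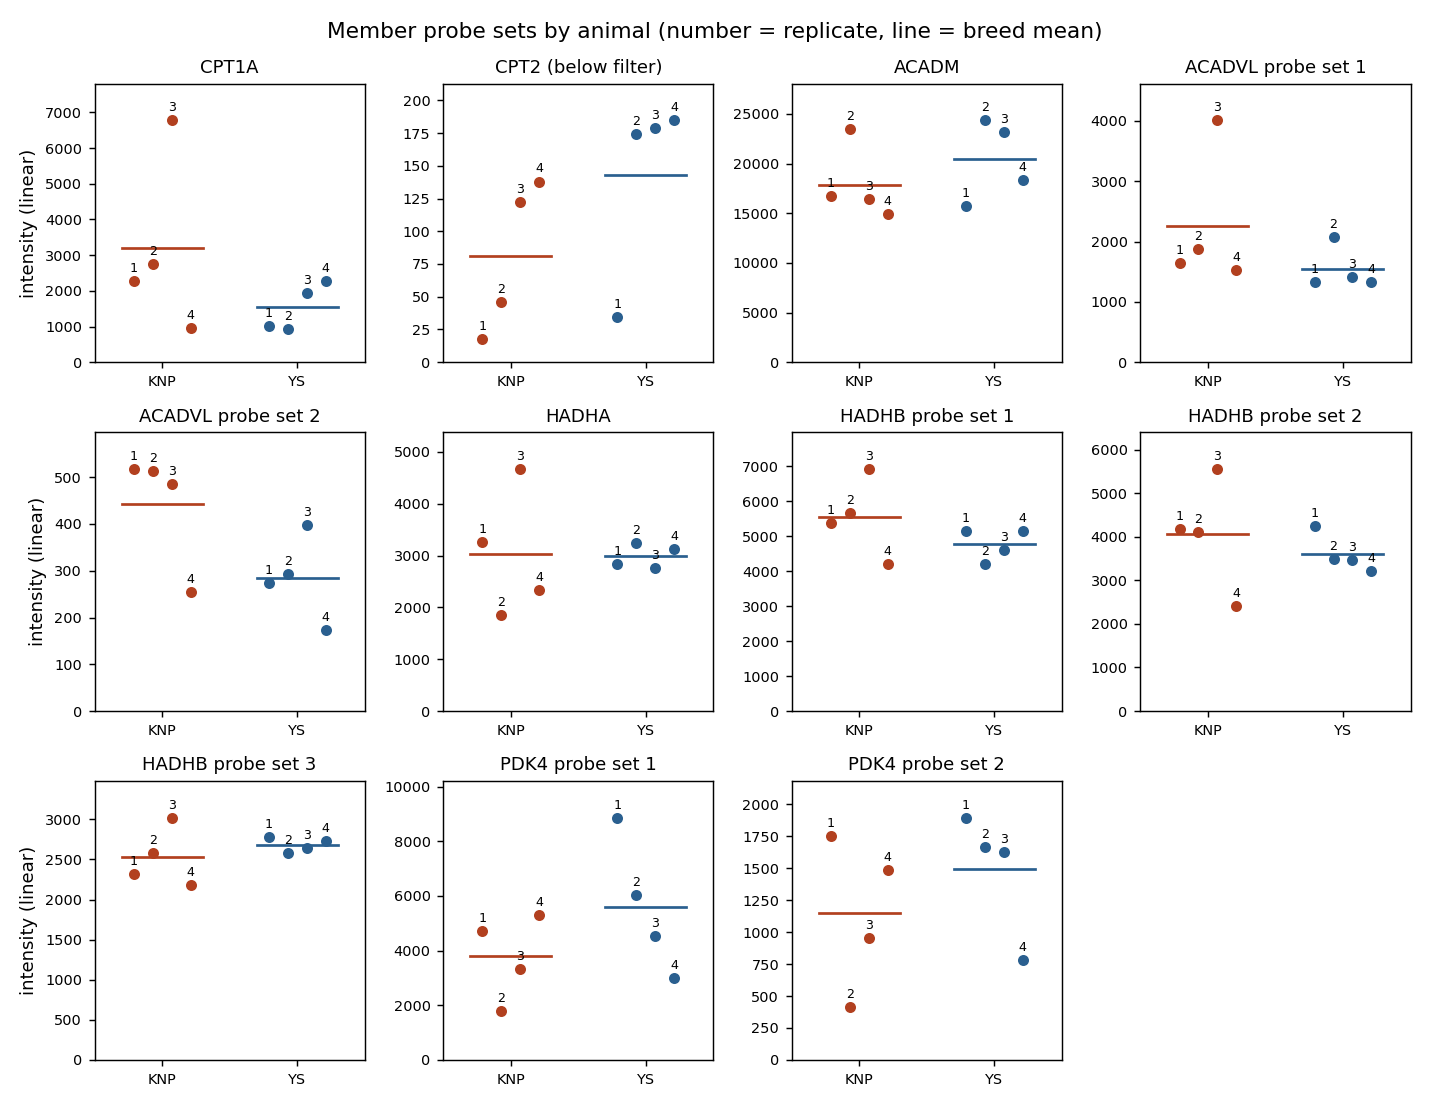
Intensity (linear scale, vertical axis from 0) of the 11 member probe sets in each animal, KNP left and YS right; points are animals, numbers are replicates and lines are breed means. In every panel the values of the breeds overlap, and KNP replicate 3 is the highest KNP point in CPT1A, HADHA, all probe sets of HADHB and the first of ACADVL.

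CPT1A, the rate-controlling step of entry into the mitochondrion, had the largest difference of the tested genes in the members' list. Its probe set (Ssc.8974.1.S1_at) read 2280, 2754, 6788 and 967 in KNP replicates 1 to 4, against 1015, 943, 1944 and 2270 in YS replicates 1 to 4. Of the 4 KNP animals 3 lay above the highest YS animal, KNP replicate 1 only just, while KNP replicate 4 lay beside the lowest YS animals. CPT1A averaged 3197 ± 2510 in KNP and 1543 ± 665 in YS (SD, n = 4 each), which is a log2 difference of 0.82 (SE 0.50, 95% interval −0.28 to 1.91, adjusted p = 0.479). The interval runs from 0.824-fold to 3.76-fold, so neither a small decrease nor a several-fold increase in KNP lies outside it. The difference depended on single animals, with 0.34 without KNP replicate 3 and 1.27 without KNP replicate 4. Within KNP the highest CPT1A value was 7.02 times the lowest, against 2.41 times within YS.

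CPT2 was dim on this array and was not tested. Its probe set (Ssc.11323.1.A1_at) read 17.5, 45.9, 122 and 138 in KNP, against 34.5, 174, 179 and 185 in YS. The array medians ran from 153 to 170 in KNP and from 154 to 180 in YS, so all KNP values lay below them. All KNP animals lay below YS replicates 2 to 4, and YS replicate 1 lay among the low KNP animals. CPT2 averaged 80.7 ± 58.1 in KNP and 143 ± 72.6 in YS (SD, n = 4 each). The log2 difference was −0.78 with a pseudocount of 16, −0.95 with 1 and −0.52 with 64. With no filter on low values limma gave it an SE of 0.57 and an adjusted p of 0.599.

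ACADVL, the dehydrogenase that opens beta-oxidation of very long chains, had 2 probe sets, both with a higher mean in KNP. The brighter (Ssc.16637.1.S1_at) read 1650, 1870, 4017 and 1526 in KNP, against 1333, 2082, 1409 and 1333 in YS. KNP replicate 3 stood alone at the top, and the other KNP animals lay within the YS range. The log2 difference was 0.46 (SE 0.29, 95% interval −0.17 to 1.10, adjusted p = 0.491), and 0.15 without KNP replicate 3. The dimmer (Ssc.21669.1.S1_at) read 518, 514, 485 and 255 in KNP, against 273, 292, 398 and 173 in YS. Here KNP replicates 1 to 3 lay close together above every YS animal, and KNP replicate 4 lay within the YS range. This was the lowest p of the members (log2 difference 0.62, SE 0.29, 95% interval −0.01 to 1.24, unadjusted p = 0.0531, adjusted p = 0.339). The probe sets of ACADVL did not share a pattern over the animals, since KNP replicate 3 was set apart in the first only.

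ACADM, the dehydrogenase of medium-chain acyl-CoA, was the brightest member probe set (Ssc.142.1.S1_at). It read 16714, 23521, 16390 and 14874 in KNP, against 15695, 24391, 23182 and 18391 in YS. Each breed had high and low animals, and the highest value was 1.58 times the lowest in KNP and 1.55 times in YS. ACADM averaged 17875 ± 3849 in KNP and 20415 ± 4076 in YS (SD, n = 4 each; log2 difference −0.19, SE 0.18, 95% interval −0.59 to 0.21, adjusted p = 0.661). Its sign depended on the scaling, with 0.12 after quantile normalization, which gives all arrays the same distribution, and 0.086 after cyclic loess. Of all probe sets tested, the 167 as bright as ACADM (mean log2 intensity 14 to 15) had a median difference of −0.39, and −0.041 after quantile normalization.

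The subunits of the trifunctional protein had breed means close together. HADHA, the alpha subunit with hydratase and long-chain hydroxyacyl-CoA dehydrogenase activity (Ssc.11580.1.S1_at), read 3259, 1850, 4673 and 2326 in KNP, against 2845, 3247, 2756 and 3124 in YS. All YS animals lay inside the KNP range, with 2 KNP animals above and 2 below them. HADHA averaged 3027 ± 1243 in KNP and 2993 ± 231 in YS (SD, n = 4 each; log2 difference −0.07, SE 0.25, 95% interval −0.61 to 0.48, adjusted p = 0.925).

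HADHB, the beta subunit with the thiolase activity, had 3 probe sets. The brightest (Ssc.11785.1.A1_at) read 5369, 5665, 6927 and 4216 in KNP, against 5157, 4216, 4606 and 5137 in YS (log2 difference 0.20, SE 0.17, 95% interval −0.17 to 0.56, adjusted p = 0.611). Of the KNP animals 3 lay above all YS animals, and KNP replicate 4 lay at the lowest YS value. The next (Ssc.23043.1.S1_at) read 4169, 4100, 5560 and 2414 in KNP, against 4240, 3498, 3461 and 3205 in YS, a log2 difference of 0.12 (SE 0.23, adjusted p = 0.843). It was −0.05 without KNP replicate 3. The last (Ssc.11785.2.A1_at) read 2324, 2578, 3022 and 2178 in KNP, against 2786, 2586, 2640 and 2728 in YS, with a difference of −0.10 (SE 0.14, 95% interval −0.41 to 0.22, adjusted p = 0.789). There KNP replicate 3 lay above all YS animals and the other 3 KNP animals lay below them, KNP replicate 2 only just. KNP replicates 1 and 2 thus lay on the opposite side of the YS animals from the brightest probe set, while KNP replicate 3 lay above them in both. The YS values of this probe set were the tightest of all members, the highest being 1.08 times the lowest. In all 3 probe sets KNP replicate 3 was the highest of the 8 animals.

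PDK4, the kinase that shuts off pyruvate dehydrogenase, went the other way from CPT1A in its breed means, with both of its probe sets lower in KNP and neither passing. The brighter (Ssc.1121.1.S1_at) read 4724, 1786, 3308 and 5318 in KNP, against 8865, 6032, 4543 and 3003 in YS. YS replicates 1 and 2 lay above all KNP animals and KNP replicate 2 lay below all YS animals. PDK4 averaged 3784 ± 1577 in KNP and 5611 ± 2497 in YS (SD, n = 4 each; log2 difference −0.57, SE 0.37, 95% interval −1.39 to 0.25, adjusted p = 0.508). The dimmer (Ssc.10131.1.A1_at) read 1752, 411, 953 and 1484 in KNP, against 1897, 1664, 1630 and 783 in YS, with a difference of −0.49 (SE 0.42, adjusted p = 0.618). KNP replicate 2 was the lowest and YS replicate 1 the highest of the 8 animals in both. Without KNP replicate 2 the differences were −0.25 and −0.066.

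**Figure D2:**
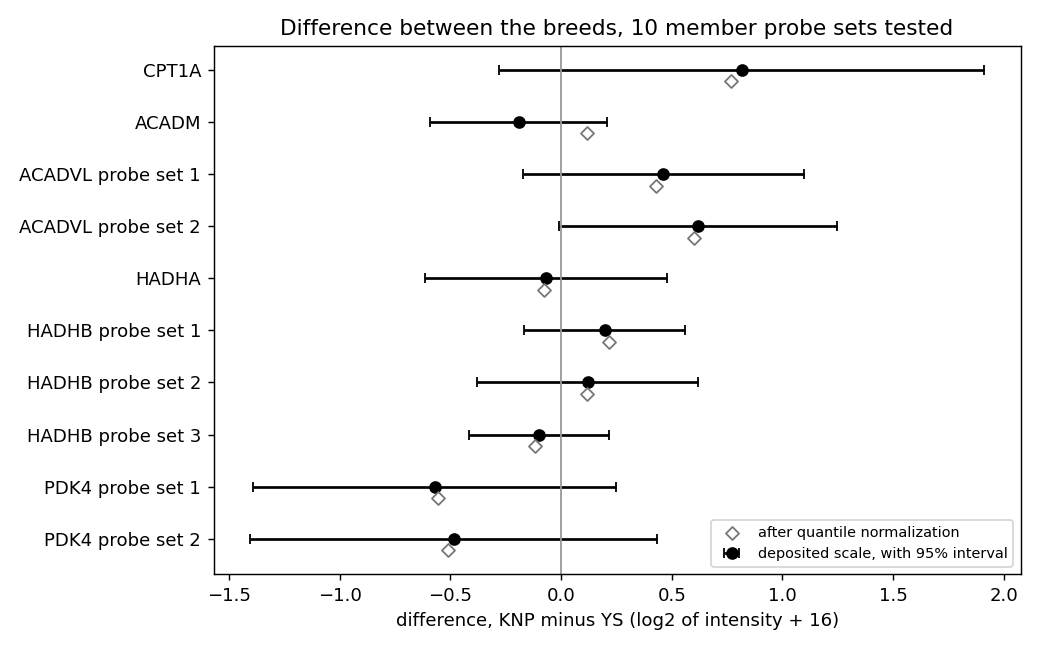
Log2 difference, KNP minus YS, of the 10 member probe sets tested (horizontal axis), with filled points and 95% intervals on the deposited scale and open diamonds after quantile normalization. Every interval crosses 0, and ACADM alone changes sign between the scales, at −0.19 and 0.12.

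Much of the variation in the members lay between animals of a breed. In 9 of the 10 probe sets the SD of the log2 values was larger in KNP than in YS, as it was in 59.7% of all probe sets tested, with a median over the members of 0.54 in KNP and 0.30 in YS. The same medians over all probe sets tested were 0.32 in KNP and 0.27 in YS. KNP replicate 3 was the highest of the 8 animals in 6 of the 10 probe sets, from HADHA, HADHB, CPT1A and ACADVL. KNP replicate 4 was the lowest in 3, from ACADM and HADHB, and KNP replicate 2 the lowest in 3, from HADHA and PDK4. Probe sets of HADHB share their transcript and those of PDK4 share theirs, so these counts are not over independent genes. The same counts over all probe sets tested are not given here, so these cannot be called particular to the members.

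**Figure D3:**
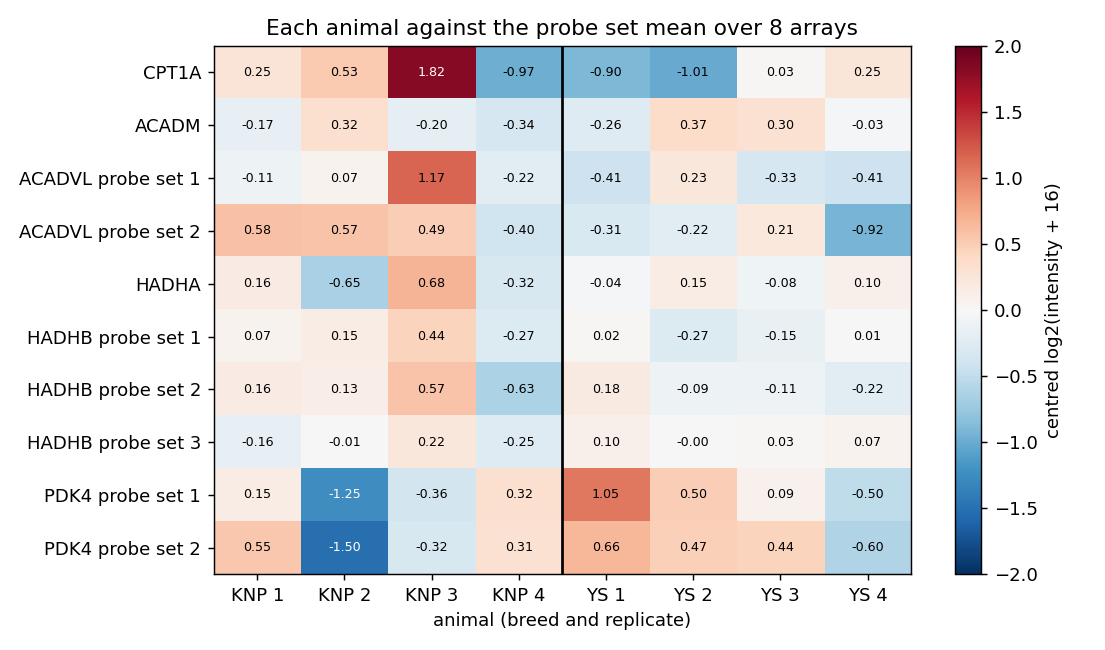
Log2(intensity + 16) of each tested member probe set in each animal, minus the mean of that probe set over the 8 arrays; rows are probe sets, columns are animals with KNP left of the line and YS right of it, red above and blue below the mean. KNP replicate 3 reaches 1.82 in CPT1A, and KNP replicate 2 falls to −1.50 in the second PDK4 probe set.

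Likeness was measured as the root mean square difference of the centred log2 values over the 8 arrays, where 0 means the same centred values. The values were not scaled to the same spread. Probe sets that vary little therefore lie close whatever their pattern, and variable ones can lie far apart despite a like pattern. Probe sets of the same gene were closest, at 0.17, 0.18 and 0.25 among those of HADHB and 0.25 between those of PDK4, but 0.50 between those of ACADVL. HADHA lay at 0.31 to 0.34 from the probe sets of HADHB, its partner subunit. HADHB is its neighbouring protein-coding gene in the RefSeq table of the pig genome. ACADM lay closer still to the dimmest HADHB probe set, at 0.29, so such closeness was not particular to the partner subunits. CPT1A and PDK4, which both varied widely between animals, lay furthest apart of all pairs, at 1.42 and 1.41 for the probe sets of PDK4. KNP replicates 2 and 3 and YS replicate 4 were above the mean in CPT1A and below it in PDK4. The reverse held for KNP replicate 4 and YS replicates 1 and 2. KNP replicate 1 and YS replicate 3 were above the mean in both genes.

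Among 5422 other genes tested by their brightest probe set, the nearest to PDK4 were ATP23 (0.32), TAT (0.33) and BHMT (0.34). TAT, tyrosine aminotransferase, read 11655, 6252, 10134 and 15135 in KNP, against 19757, 10703, 8679 and 5795 in YS, so YS replicate 1 was highest and YS replicate 4 and KNP replicate 2 lowest there. Nearest to CPT1A were HYAL2 (0.43), ALOX5AP (0.51) and CRELD1 (0.53), of which ALOX5AP, a partner of 5-lipoxygenase, read 325, 375, 958 and 357 in KNP, against 237, 233, 544 and 349 in YS. KNP replicate 3 was the highest animal in all 3. With 8 arrays, some of so many genes lie near any pattern.

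The rest of the pathway was described by 7 lists with 98 entries, of which 67 had a probe set of their own symbol and 62 were tested. Of these 62 genes 0 rose and 0 fell by limma's test. An unadjusted p under 0.05 was found for 14 (22.6%, against 15.1% of all probe sets tested), and no overlap between the breeds for 8 (12.9%, against 9.68%). The median difference over the 62 was −0.04.

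Of 19 other mitochondrial beta-oxidation genes tested, 0 passed, 6 had a higher and 13 a lower log2 mean in KNP, and the median was −0.08. After quantile normalization the median of this list was 0.0063. CRAT, which exchanges acetyl groups between carnitine and CoA, read 1326, 1013, 2556 and 1205 in KNP, against 808, 712, 585 and 743 in YS. Every KNP animal lay above every YS animal, with a log2 difference of 1.00 (SE 0.26, adjusted p = 0.107). ECHS1, the short-chain enoyl-CoA hydratase, averaged 21741 ± 2504 in KNP and 29482 ± 4064 in YS (SD, n = 4 each; difference −0.44, adjusted p = 0.167), and its difference was −0.05 after quantile normalization. The further enzymes showed smaller differences, 0.25 for ACADS, the short-chain dehydrogenase, −0.08 for HADH, the short-chain hydroxyacyl-CoA dehydrogenase, and −0.25 for SLC25A20, which carries acylcarnitine across the inner membrane. The electron carriers behind the dehydrogenases, ETFA, ETFB and ETFDH, showed −0.17, −0.06 and 0.19, the second probe set of ETFDH 0.58.

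In 2 genes of this list KNP replicate 2 stood far from all other animals. ACAA2, the mitochondrial thiolase, read 15318, 375, 18132 and 21168 in KNP, against 14074, 12457, 9714 and 15420 in YS. Its difference was −0.88 (SE 1.03, adjusted p = 0.733), and 0.50 without KNP replicate 2. ACADL, the long-chain dehydrogenase, read 1101, 6153, 1177 and 1209 in KNP, against 1393, 1466, 1027 and 821 in YS, with a difference of 0.62 (SE 0.48, adjusted p = 0.578), and 0.020 without KNP replicate 2. KNP replicate 2 was thus lowest in ACAA2 and highest in ACADL.

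Peroxisomes shorten very long and branched chains with their own enzymes. Of 11 such genes tested, 0 passed, 6 had a higher and 5 a lower log2 mean in KNP, and the median was 0.15. ACOX3, an oxidase of branched-chain acyl-CoA, came nearest to the threshold of the 62 genes, at 982, 782, 1299 and 1146 in KNP, against 386, 433, 431 and 772 in YS (log2 difference 1.06, SE 0.24, adjusted p = 0.0703). All KNP animals lay above all YS animals, KNP replicate 2 only just above YS replicate 4. DECR2, the peroxisomal dienoyl-CoA reductase, named after its values were seen, also showed no overlap (0.56, adjusted p = 0.178; second probe set 1.10). ECH1 showed 0.57, ACAA1, the peroxisomal thiolase, 0.34, HSD17B4, the multifunctional enzyme, −0.45, and AMACR, a racemase of branched acyl-CoA, −0.57, with adjusted p between 0.270 and 0.575. HSD17B4 showed −0.20 after quantile normalization, and AMACR ran from −1.10 without KNP replicate 2 to −0.28 without KNP replicate 4.

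Of the genes of ketone body metabolism 2 were tested, and 0 passed. BDH1, which interconverts the ketone bodies acetoacetate and hydroxybutyrate, averaged 595 ± 269 in KNP and 593 ± 54.6 in YS (SD, n = 4 each; difference −0.10, SE 0.29, adjusted p = 0.899; second probe set 0.32). BDH2, a cytosolic dehydrogenase, averaged 2433 ± 615 in KNP and 3203 ± 689 in YS (difference −0.40, SE 0.21, adjusted p = 0.392).

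The list for pyruvate dehydrogenase, the complex that PDK4 acts on, also held the mitochondrial pyruvate carriers MPC1 and MPC2. Of its 8 genes tested, carriers included, 0 passed, 4 had a higher and 4 a lower log2 mean in KNP, and the median was 0.13. PDHB, the beta subunit, read 4184, 4551, 4567 and 3554 in KNP, against 5153, 5172, 5236 and 4800 in YS, without overlap (difference −0.28, SE 0.13, adjusted p = 0.355). PDHA1, the alpha subunit that the kinases phosphorylate, showed −0.62, PDP2, a phosphatase that reactivates the complex, 0.50, and PDK3, another of the kinases, 0.35, with adjusted p from 0.253 to 0.637. Without YS replicate 3 the difference of PDK3 was 0.094.

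Of 8 fasting regulators tested, 0 passed, 3 had a higher and 5 a lower log2 mean in KNP, and the median was −0.08. PPARA, the receptor that induces oxidation genes, was below the filter at 82.4, 44.4, 53.2 and 78.6 in KNP, against 66.6, 4.04, 40.6 and 72.3 in YS, and was not tested. PPARGC1A, its coactivator, read 1602, 217, 389 and 736 in KNP, against 1056, 639, 619 and 657 in YS (difference −0.35, SE 0.48, adjusted p = 0.777). KNP replicates 2 and 3 were the lowest animals in it. HNF4A, a master regulator of hepatocyte genes, showed −0.48 without overlap between the breeds (adjusted p = 0.253; second probe set −0.08). NR3C1, the glucocorticoid receptor, showed 0.54, and SIRT3, a mitochondrial deacetylase, 0.44.

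Malonyl-CoA blocks CPT1A, and the kinase AMPK lowers malonyl-CoA. Of 7 genes of this control tested, 0 passed, 5 had a higher and 2 a lower log2 mean in KNP, and the median was 0.38. They were AMPK subunits and STK11, so the enzymes that make or remove malonyl-CoA were not covered. The beta subunits of AMPK had no overlap between the breeds. PRKAB1 had a difference of 0.48 (adjusted p = 0.222). PRKAB2 read 255, 135, 136 and 213 in KNP, against 86.2, 119, 68.6 and 116 in YS (difference 0.80, SE 0.29, adjusted p = 0.221). It was dim, with all YS animals and KNP replicates 2 and 3 below the array medians of 153 to 180, so its lack of overlap rests on values near the filter. STK11, a kinase that activates AMPK, showed 0.53 (adjusted p = 0.252). Of 7 further PPARA-responsive liver genes 0 passed, 2 had a higher and 5 a lower log2 mean, and the median was −0.19. FABP1, the liver's fatty acid carrier, averaged 31044 ± 7671 in KNP and 50378 ± 7670 in YS without overlap (SD, n = 4 each; difference −0.72, SE 0.18, adjusted p = 0.0955), and −0.23 after quantile normalization. VNN1 showed −0.84 and TXNIP −0.42, with adjusted p of 0.682 and 0.425, and TXNIP showed −0.17 after quantile normalization and −0.19 after cyclic loess.

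**Figure D4:**
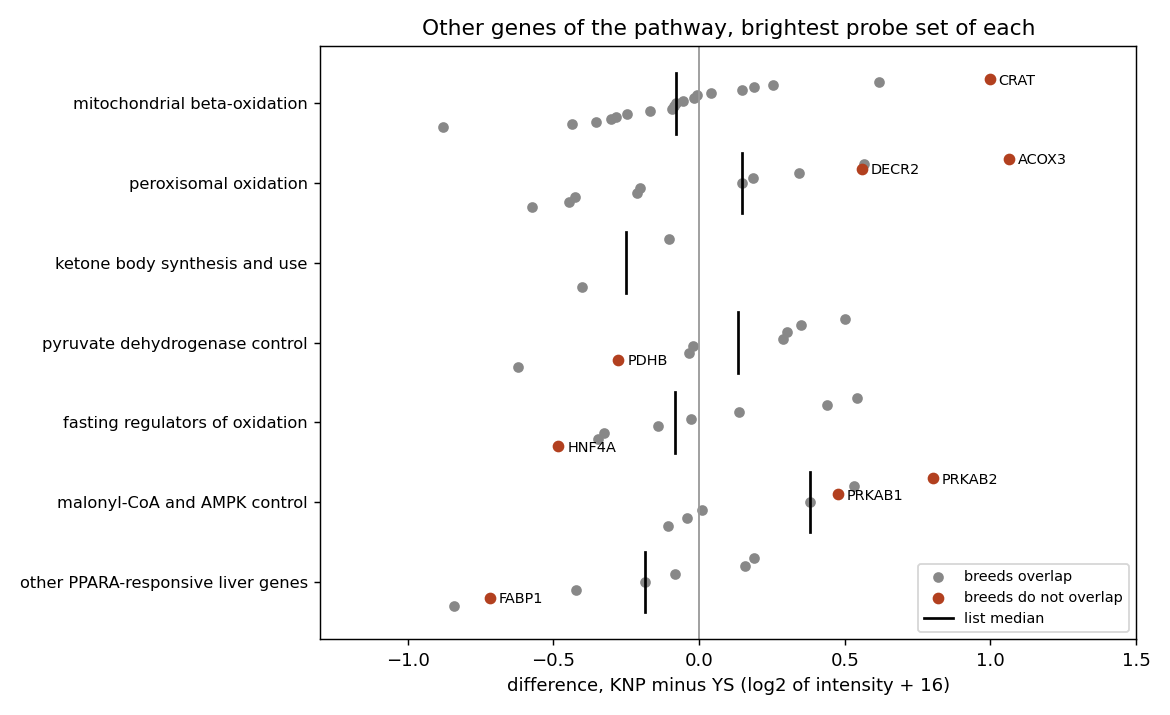
Log2 difference, KNP minus YS (horizontal axis), of the brightest probe set of each tested gene in 7 pathway lists (rows); red points are the 8 genes whose breeds do not overlap, grey points the others, black bars the list medians. The medians lie between −0.25 and 0.38, and none of the points passed the test.

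Some measures of the whole array also differed between the breeds. The 8 hepatocyte markers were all bright, and their summed intensity was 287576 to 330557 in KNP and 457956 to 494824 in YS, with a median difference of −0.60, and −0.01 after quantile normalization. The highest intensity on an array was 50730 to 60066 in KNP and 83646 to 95919 in YS. Spiked hybridization controls averaged 3544 ± 615 in KNP and 6050 ± 1099 in YS, and the ratio of actin 3′ to 5′ signal 4.83 ± 1.88 in KNP and 10.5 ± 1.45 in YS (SD, n = 4 each; exact permutation p = 0.0286 for both, the smallest possible). The same ratio for GAPDH overlapped, at 3.04 ± 0.705 in KNP and 3.50 ± 0.407 in YS (SD, n = 4 each; exact permutation p = 0.314). Kupffer cell markers summed to 24724 to 28806 in KNP and 18027 to 25968 in YS. The adipocyte and skeletal muscle markers on the array, 3 and 4 genes, all lay below the filter. The part of these measures in the differences was not tested.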

How the data were processed

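Per the labels, biotin-labelled total RNA from 8 livers was hybridized to Affymetrix arrays; GCOS 1.3 is the tool in the submitters' processing notes. The authors deposited 1 linear intensity for each probe set and array. Their trimmed mean was the same on every array to within rounding (499.8), so the authors scaled each array; the sources used here do not state the signal algorithm, and no detection calls were used. Values were taken as log2(intensity + 16) and 124 controls were left out. Array medians differed by 0.22 (limit 0.5), so the values were not scaled again. Of the others the dimmest 40% by mean log2 value were dropped, which left 14399 for the test, breed as the only term, with limma 3.58.1 (intensity trend) in R 4.3.3. Symbols come from the array annotation; all 11 member probe sets matched the RefSeq gene table of Sscrofa11.1. For arrays, the number of animals limits precision. The fit was tested on simulated data. Some items are not reported here.

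Members and lists were chosen with earlier results of these data known. Named are all members, the 3 genes of each list with the largest difference, any gene past the threshold, and a fixed set of pathway genes. Alternatives were other pseudocounts, scalings, filters, variance settings, array weights, a replicate block and each animal left out. Replicate numbers name different animals in each breed, so nothing was paired.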

Additional observations from a re-analysis of the deposited data

Results flagged for a closer look

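In 10 of 86 groups of 4 animals looked at, an animal lay far from the other 3 of its breed on the log2 scale. Independent normal values give about 1 in 20 groups. These groups share the same 8 animals, and some genes were named for their large differences, so the count does not measure an excess over chance. No explanation was tested. Among the members, YS replicate 1 was low in CPT2 at 34.5, against 174 to 185 in the other YS animals. YS replicate 2 was high in the brighter probe set of ACADVL at 2082, against 1333 to 1409. KNP replicate 4 was low in its dimmer probe set at 255, against 485 to 518 in the other KNP animals.

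KNP replicate 2 stood apart in ACAA2 at 375, against 15318 to 21168 in the other KNP animals, in ACADL at 6153, against 1101 to 1209, and in TXNIP at 17959, against 10119 to 10623. KNP replicate 4 was low in HNF4A at 4599, against 7888 to 8091, and KNP replicate 3 in PDP2 at 296, against 445 to 475. Among YS animals, replicate 4 was high in ACOX3 at 772, against 386 to 433, and replicate 1 in PPARGC1A at 1056, against 619 to 657.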

How the results depend on the processing

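The count of 0 member probe sets and 0 list genes past the threshold held under every alternative run; the lowest adjusted p of a member was 0.154 (without KNP replicate 4), and 0.214 with the replicate block. The 149 calls over all probe sets became 14 after quantile normalization and 14 after cyclic loess, 95 after median centring, 35 with no filter, 13 with no intensity trend and 8 with the replicate block, and 8 to 119 with an animal left out; the cause was not tested. Same-numbered animals of the breeds deviated together with correlations of −0.02 to 0.051, so the numbers do not pair them. ACADM turned to 0.12 after quantile normalization and 0.086 after cyclic loess, and HADHA to 0.0067 after median centring. With an animal left out, HADHA ran from −0.31 to 0.14 and the second HADHB probe set from −0.051 to 0.35. CPT1A ran from 0.34 to 1.27 in the same fits, and the members' median from −0.04 to 0.17. That median was 0.17 after quantile normalization, 0.19 after cyclic loess and 0.14 after median centring, against 0.064 in the main run. It was −0.07 with no filter, which adds CPT2. Of the list genes, HADH turned to 0.22 and 0.18 after quantile normalization and cyclic loess, ETFA to 0.014 and ETFB to 0.051 after cyclic loess, and ETFB to 0.020 after median centring. With an animal left out, ACAA2 ran from −1.42 to 0.50, BDH1 from −0.36 to 0.19, ETFB from −0.15 to 0.074, HADH from −0.17 to 0.012, PPARGC1A from −0.84 to 0.094 and VNN1 from −1.61 to 0.18. The difference of the dim probe set of CPT2 ran from −0.95 to −0.52 with the pseudocount.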
